A study of Homo sapiens with 6 samples.

Results

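Small nucleolar RNAs are short non-coding RNAs that direct chemical changes on other RNAs. Box C/D RNAs guide 2′-O-methylation and box H/ACA RNAs guide pseudouridylation, mostly of ribosomal RNA, while the related small Cajal body RNAs guide both kinds of change on the spliceosomal small nuclear RNAs. In human cells most of them lie in introns of other genes, often of ribosomal proteins or of long non-coding RNAs with little other product, and are trimmed out of the intron after the host transcript is spliced.

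These RNAs were measured in HepG2, a hepatoma-derived human line, on Affymetrix Human Gene 1.0 ST arrays. There were 3 arrays of untreated cells and 3 of cells kept with a water extract of Barringtonia racemosa leaf at 50 µg/ml for 24 h, called leaf-treated here. All 6 samples came from this 1 tumour line, no other agent is named for either group, and the control is described only as untreated. The labels call the replicates biological but do not say whether they were separate cultures, so a p-value here measures the spread between these arrays, which may be technical. Members were the rows of the deposited table whose platform annotation gave exactly 1 symbol beginning with SNORA, SNORD or SCARNA and a digit. The rule found 198 transcript clusters (rows) of 192 genes among 19291 tested clusters. They comprised 64 box H/ACA, 115 box C/D and 19 Cajal body clusters, and 0 of them was listed at 0 on all arrays. Clusters for SNORD3A, SNORD118, SNORA73A, SNORA73B and SCARNA2 with a single symbol were not among them, and those RNAs were not analysed here. SNORA10 and SNORA15 each had a pair of clusters with identical values, 4 rows in all, which were kept.

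Values are log2 expression as deposited, and a level is read only against the same cluster on other arrays. Detection calls were not used. The 95th percentile of the mean level of 378 olfactory receptor clusters, 3.28 on the log2 scale, is called the reference level. In the higher of the 2 groups 29 box H/ACA, 49 box C/D and 11 Cajal body clusters lay above it. The median over all tested clusters was 3.71 to 3.74 on the untreated arrays and 3.81, 3.75 and 3.83 on leaf-treated arrays 1, 2 and 3, so that arrays 1 and 3 stood apart. The 8 hepatocyte markers measured had untreated means of 7.88 to 11.4 and the 9 markers of other lineages 2.56 to 4.19. Of the latter, 8 were higher in leaf-treated cells, with COL1A1, a fibrillar collagen, 0.24 and CD34, a progenitor and endothelial surface protein, 0.29 higher on the log2 scale, and 0 of the 9 had an unadjusted p under 0.05. Of the 9, 5 lay above the reference level. The log2 of their summed level was 6.50 to 6.56 on untreated arrays and 6.82, 6.56 and 6.83 on leaf-treated arrays 1, 2 and 3, so it was higher on the same arrays 1 and 3. Their part in the results below was not tested. Of the 8 hepatocyte markers 7 were below 0, with a median log2 fold change of -0.10 and 0 lower at an unadjusted p under 0.05. The exception was TTR, a secreted transport protein, which was 0.19 higher, and AFP, a fetal liver protein, was 0.15 lower. Their part was not tested either. Because the samples are bulk RNA, fewer cells that express a gene and less RNA per cell cannot be told apart. RNA was isolated on silica columns, which hold short RNAs poorly, and the probes of a cluster do not separate the trimmed RNA from its precursor or from host intron, so these forms cannot be told apart either.

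The host genes of the leading members are shown by the bases around their annotated start, because many hosts of small nucleolar RNAs begin in a run of pyrimidines, the hallmark of 5′ terminal oligopyrimidine transcripts, whose translation follows nutrient signals. Each line holds 30 bases of the RefSeq sequence (GRCh38.p14), 12 before the start and 18 from it, read along the gene, and capitals mark the run of at least 5 C or T that covers the first transcribed base. A host is the RefSeq gene whose span contains the member. The strand of the members was not at hand, so a host was not checked to lie on the same strand.
RABGGTB, host of SNORD45B, chr1:75786244-75786273, plus strand: accctgCTCTCTCCTTTCCCTgttagacat
SNHG1, host of SNORD28, chr11:62855868-62855897, minus strand: gggagattcgTTCTCatttttctactgctc
SNHG5, host of SNORD50A, chr6:85678716-85678745, minus strand: gcgcacttcggTCTTTTacgtcggccttcg
RPL7A, host of SNORD36B, chr9:133348206-133348235, plus strand: caaTTCCCTTTCCTTTCTCTCTCCTCCCgc
RPSA, host of SNORA62, chr3:39406708-39406737, plus strand: cctgccgcctgTCTTTTCCgtgctacctgc
RPS12, host of SNORA33, chr6:132814557-132814586, plus strand: tgcggatgaggCCTCTTTCCCTgccgccgc
GAS5, host of SNORD75 and of 6 other members, chr1:173869028-173869057, minus strand: catcatgaattcagatgtgtttattttgga
The run was 15 bases long in RABGGTB, 25 in RPL7A, 11 in RPS12, 8 in RPSA, 6 in SNHG5 and 5 in SNHG1. These lengths, and the shares below, count bases before the start too, so the transcribed part of a run can be shorter than 5. In GAS5 no run of at least 5 C or T covered the first base of the RefSeq start. Over all 27305 starts in the table, on the gene's own strand, 9.8% had such a run. Of the 105 host genes of members 87 had an entry, and 39.1% of these had the run. The share was 42.9% of 35 hosts of box C/D members and 37.2% of 43 hosts of box H/ACA members, so hosts of both classes had it often. It was found in 6 of the 10 hosts with an entry among the 12 hosts of the members past the thresholds given below. Of these 10, SNHG14, CEP295 and EIF1AX are not printed above and had no such run. A run is a description of letters and was not tested for a part in any result.

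Whether the small nucleolar and Cajal body RNAs differed between leaf-treated and untreated cells was read in a limma fit over all 19291 tested clusters. Of the members 0 reached an adjusted p under 0.05, while 1 cluster of all tested did (0.00518%). The smallest adjusted p from limma was 0.37 among box C/D, 0.48 among box H/ACA and 0.39 among Cajal body members. The test per cluster without moderation that the design of the series names also called 0 members. Everything that follows therefore describes unadjusted p-values, sizes and directions, none of which passed the correction over all clusters.

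At an unadjusted p under 0.05, 23 of 115 box C/D clusters (20.0%) were lower in leaf-treated cells and 0 were higher. Over all tested clusters 5.9% were lower and 3.87% higher at this p. Among box H/ACA clusters 4 of 64 were lower (6.25%) and 1 was higher, close to the share over all clusters. Of the 19 Cajal body clusters 2 were lower and 0 higher, and both came from SCARNA9 and its copy SCARNA9L. The difference between the classes itself was not tested. With the unmoderated test, 18 box C/D clusters were lower at this p, 15.7% beside 3.67% of all clusters. Leaf-treated array 2 alone against the untreated arrays gave 11 lower (9.57%, beside 4.46% of all clusters) and 2 higher, while 8.15% of all clusters were higher. In that fit the spread came from the untreated arrays alone, and the single array was assumed to vary like them.

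The thresholds named in the design of the series, an unadjusted p under 0.05 and a difference of 1.5 fold or more, were passed by 12 members, all lower. They were 8 box C/D (6.96%), 2 box H/ACA (3.12%) and 2 Cajal body clusters, whereas 0.57% of all tested clusters passed as lower and 0.27% as higher. The count depended on single arrays, and the share over all clusters moved with it. It was 5 without leaf-treated array 3 (0.378% of all clusters lower), 6 without untreated array 1 (0.352%) and 16 without leaf-treated array 2 (1.67%). With leaf-treated array 2 alone it was 4 (0.285%), of which 2 were among the 12.

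**Figure D1:**
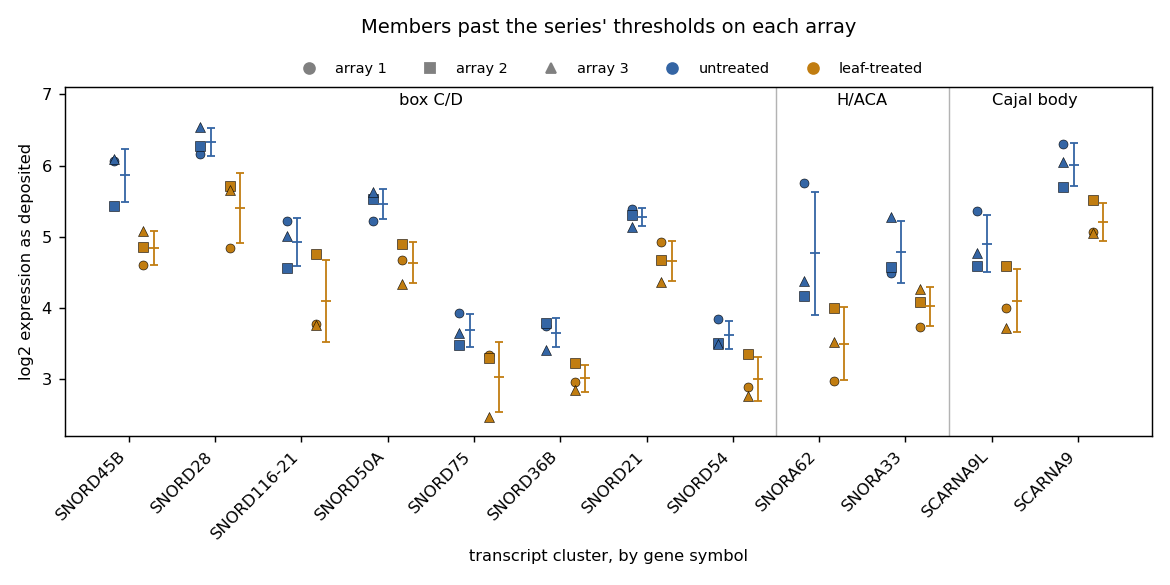
The 12 members past the series' thresholds, with log2 expression on the vertical axis, 1 point per array (symbol shape gives the array number) and beside it the group mean with its SD. In 10 of the 12 the leaf-treated points lie below all untreated points, and in SNORD116-21 and SCARNA9L leaf-treated array 2 lies among or level with the untreated arrays.

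The distribution of all members showed the same contrast. The median log2 fold change, leaf-treated minus untreated, was -0.07 for box C/D, -0.02 for box H/ACA and 0.01 for Cajal body clusters, and 0.01 over all tested clusters. Of the box C/D clusters 85 (73.9%) were below 0, of the box H/ACA clusters 36 (56.2%) and of the Cajal body clusters 9 (47.4%), beside 46.9% of all clusters. Centring each array on its median moved these class medians to -0.14, -0.08 and -0.05, and that over all clusters to -0.05. Leaf-treated and untreated arrays did not overlap in 23 box C/D clusters, all lower in leaf-treated cells (20.0%). Non-overlap was found for 4 lower and 1 higher box H/ACA clusters and for 1 lower Cajal body cluster, while over all tested clusters 7.41% were lower and 6.14% higher without overlap.

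Within box C/D the counts were unevenly spread over the genes. The imprinted repeat families SNORD113 and SNORD114 (within the MEG8 span) and SNORD115 and SNORD116 (within SNHG14) held 46 clusters, of which 6 lay above the reference level. Their median was -0.03 and 3 were lower at an unadjusted p under 0.05. The other 69 box C/D clusters, 43 of them above the reference level, had a median of -0.18, with 56 below 0 (81.2%), 20 lower at this p (29.0%) and 7 past the series' thresholds (10.1%).

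**Figure D2:**
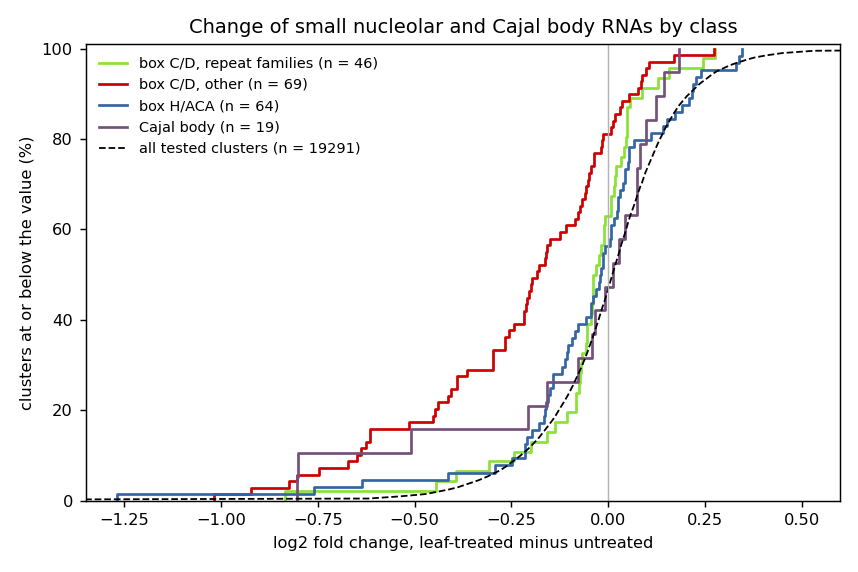
Cumulative share of clusters (vertical axis, %) at or below each log2 fold change, leaf-treated minus untreated (horizontal axis), for the 4 sets of members and for all 19291 tested clusters (dashed). The 69 box C/D clusters outside the repeat families run to the left of the dashed line over most of their range, with a median of -0.18, and the other sets lie close to it near 0.

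The shift was also read on each leaf-treated array by itself. Of the box C/D clusters outside the repeat families 52.2%, 49.3% and 59.4% lay below all untreated arrays on leaf-treated arrays 1, 2 and 3. Over all tested clusters the shares were 30.1%, 22.7% and 32.0%. Box H/ACA clusters gave 18.8%, 37.5% and 37.5%, and Cajal body clusters 15.8%, 26.3% and 26.3%, so box H/ACA lay under the share over all clusters on array 1 and above it on arrays 2 and 3, and Cajal body RNAs lay above it on array 2 alone. Array 2 was closest to the untreated arrays in its median over all clusters. With that array alone the median log2 fold change of the 69 box C/D clusters outside the repeat families was -0.12, beside -0.18 with all arrays. The part of the array medians in these shares was not tested.

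**Figure D3:**
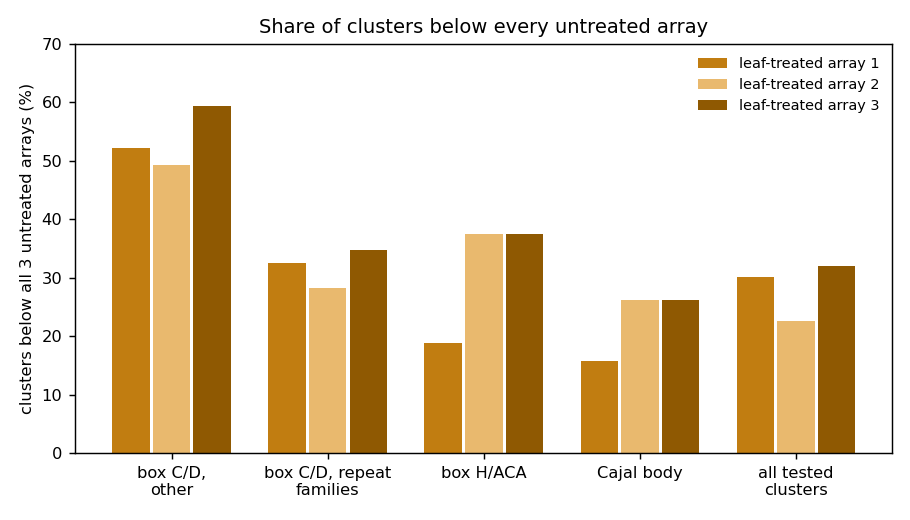
Share of clusters (vertical axis, %) that lay below all 3 untreated arrays on each leaf-treated array, by set of members and over all tested clusters. Box C/D RNAs outside the repeat families stand at 49.3% to 59.4%, above the 22.7% to 32.0% over all clusters on each array.

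Among box C/D RNAs the largest difference was in SNORD45B, an intronic RNA of RABGGTB, which encodes a subunit of the enzyme that adds prenyl groups to Rab proteins. It measured 6.06, 5.44 and 6.09 on untreated arrays 1 to 3 and 4.60, 4.85 and 5.08 on leaf-treated arrays 1 to 3. All leaf-treated arrays were below all untreated ones. The log2 fold change was -1.02 with a standard error of 0.21, 2.03-fold lower (adjusted p = 0.37 from limma), and it was -1.01 with leaf-treated array 2 alone. RABGGTB itself, on its own cluster, was 5.71, 5.47 and 5.71 untreated and 5.15, 5.28 and 5.21 leaf-treated, a log2 fold change of -0.41 (SE 0.09, adjusted p = 0.383 from limma). SNORD45A and SNORD45C of the same gene were at -0.18 and -0.16, so the 3 RNAs of this host differed in the size of their values.

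SNORD28 lies in SNHG1, a long non-coding host transcript. Its values were 6.17, 6.27 and 6.55 in untreated and 4.84, 5.72 and 5.66 in leaf-treated cells. The groups did not overlap, and leaf-treated array 1 was the lowest. The log2 fold change was -0.92 (SE 0.24, adjusted p = 0.432 from limma). SNORD30, also in SNHG1, was at -0.26 (SE 0.07) and without overlap too.

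SNORD50A lies in SNHG5, another long non-coding host. It measured 5.22, 5.52 and 5.63 in untreated and 4.67, 4.90 and 4.33 in leaf-treated cells. The groups were apart, with a log2 fold change of -0.82 (SE 0.17, adjusted p = 0.383 from limma). Its neighbour SNORD50B had 5.29, 4.28 and 4.26 untreated and 3.47, 3.95 and 4.16 leaf-treated, also apart, but untreated array 1 stood far above the other untreated arrays and the unadjusted p was just above 0.05.

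SNORD75, SNORD36B, SNORD21 and SNORD54 had smaller differences. SNORD75, in GAS5, was 3.92, 3.47 and 3.65 in untreated and 3.34, 3.29 and 2.46 in leaf-treated cells, a log2 fold change of -0.65 (SE 0.25), and -0.36 without leaf-treated array 3. SNORD36B, in RPL7A, was 3.74, 3.79 and 3.41 in untreated and 2.96, 3.22 and 2.85 in leaf-treated cells, a log2 fold change of -0.64 (SE 0.14). In both of these, and in SNORD54, the leaf-treated mean lay under the reference level, so the difference is read near the array's floor. SNORD21, in RPL5, and SNORD54, in RPS20, passed the thresholds too, with log2 fold changes of -0.62 (SE 0.15) and -0.62 (SE 0.18), and are outside the rule for naming, chosen after their values were seen.

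The repeat families differed among themselves mainly in how far they stood above background. The 6 SNORD113 and SNORD114 clusters spanned -0.07 to 0.04 and the 20 SNORD115 clusters -0.24 to 0.24 on the log2 scale of differences, with 0 at an unadjusted p under 0.05 and 0 above the reference level. The 20 SNORD116 clusters spanned -0.83 to 0.27, with 6 above the reference level and 3 lower at this p. Copies of a family have closely similar sequences, so signal can be shared between their clusters. SNORD116-21 measured 5.22, 4.56 and 5.01 in untreated and 3.77, 4.76 and 3.76 in leaf-treated cells. The groups overlapped, since leaf-treated array 2 lay above untreated array 2. The log2 fold change of -0.83 (SE 0.31, adjusted p = 0.507 from limma) was -0.17 with leaf-treated array 2 alone, so it rested on arrays 1 and 3. SNORD116-20, of the same host and outside the rule for naming, had a positive value, 0.27 (SE 0.12, adjusted p = 0.513 from limma). SNORD116-15, also outside that rule, measured 7.62, 7.18 and 7.49 in untreated and 6.89, 7.05 and 7.02 in leaf-treated cells. Its groups did not overlap, and its log2 fold change was -0.44 (SE 0.12, adjusted p = 0.45 from limma). SNORD116-1, also lower at an unadjusted p under 0.05, was at -0.20.

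SNORD13 (U13) is transcribed from its own promoter and takes part in 18S ribosomal RNA maturation rather than guiding methylation. It measured 7.65, 7.66 and 7.43 in untreated and 8.03, 7.66 and 6.86 in leaf-treated cells. The leaf-treated arrays lay on both sides of the untreated ones, with a log2 fold change of -0.06 (SE 0.28) that turned to 0.27 without leaf-treated array 3.

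Box H/ACA RNAs past the thresholds were SNORA62 and SNORA33, both in introns of ribosomal protein genes of the small subunit. SNORA62, in RPSA, was 5.76, 4.17 and 4.37 in untreated and 2.97, 4.002 and 3.52 in leaf-treated cells. The groups did not overlap, but their nearest arrays were close, 4.17 against 4.002, and untreated array 1 was far above the other untreated arrays. The log2 fold change was -1.27 (SE 0.46, adjusted p = 0.506 from limma, 2.41-fold lower), and -0.77 without untreated array 1. SNORA33, in RPS12, was 4.49, 4.57 and 5.28 in untreated and 3.73, 4.08 and 4.26 in leaf-treated cells, apart from each other, with -0.76 (SE 0.24, adjusted p = 0.483 from limma). Without untreated array 3 its log2 fold change was -0.51, under the threshold of 1.5 fold.

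The other box H/ACA clusters at an unadjusted p under 0.05, named after their values were seen, were SNORA3B (-0.41), in RPL27A, SNORA71C (-0.17), in SNHG17, and SNORA68 (0.22). SNORA68 was the one member of the 198 that was higher at this p, and its untreated mean of 2.95 and leaf-treated mean of 3.16 both lay under the reference level. The largest positive value among the members was 0.35, in SNORA80A.

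Among Cajal body RNAs SCARNA9, a guide for methylation of the U2 small nuclear RNA that lies in CEP295, a centriole assembly gene, had 2 clusters. The first measured 6.30, 5.70 and 6.05 in untreated and 5.06, 5.52 and 5.05 in leaf-treated cells, without overlap, and its log2 fold change was -0.80 (SE 0.19, adjusted p = 0.392 from limma). The second was 3.67, 3.68 and 3.27 in untreated and 3.51, 3.07 and 2.52 in leaf-treated cells, overlapping, at -0.51 (SE 0.25, adjusted p = 0.525 from limma), and at -0.25 without leaf-treated array 3. Its host CEP295 was at -0.39 (SE 0.10). SCARNA9L, a related copy within EIF1AX, also had 2 clusters. One measured 5.36, 4.58 and 4.77 in untreated and 3.9998, 4.58 and 3.72 in leaf-treated cells. Leaf-treated array 2 was level with the lowest untreated array, and the log2 fold change of -0.80 (SE 0.28, adjusted p = 0.506 from limma) was -0.32 with that array alone. The other was at -0.04. Since the copies are alike, their signals may not be separate measurements.

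The remaining Cajal body RNAs of the rule had small differences. SCARNA5, in ATG16L1 like SCARNA6, measured 4.90, 5.38 and 4.84 in untreated and 5.11, 5.19 and 5.19 in leaf-treated cells, at 0.12 (SE 0.15). SCARNA6 measured 2.91, 2.91 and 2.57 in untreated and 2.95, 2.69 and 2.99 in leaf-treated cells, at 0.08 (SE 0.13). In both RNAs the groups overlapped. SCARNA10, in NCAPD2, measured 3.04, 3.10 and 2.99 in untreated and 3.04, 3.04 and 3.03 in leaf-treated cells, at -0.01 (SE 0.06), and lay under the reference level. The clusters of SCARNA17, in SNHG22, measured 3.94, 3.77 and 3.69 untreated with 3.64, 3.76 and 3.77 leaf-treated, and 3.62, 3.76 and 3.65 untreated with 3.95, 3.65 and 3.65 leaf-treated. They pointed in opposite directions, at -0.08 and 0.07, and overlapped. SCARNA16 (0.18, adjusted p = 0.605 from limma) and SCARNA23 (0.07, adjusted p = 0.775 from limma) were with SCARNA5 the higher clusters of smallest p, and 0 Cajal body clusters were higher at an unadjusted p under 0.05.

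Members were set beside their hosts, which were found by position and without strand. Of the box C/D clusters outside the repeat families, the 19 within long non-coding hosts (10 hosts) were all below 0, with a median log2 fold change of -0.36 and 10 lower at an unadjusted p under 0.05. The 21 within ribosomal protein genes had 15 below 0, 5 lower at this p and a median of -0.13, and the 27 within other protein-coding genes had 20 below 0, 5 lower and a median of -0.08. Beside the counts in this paragraph, 46.9% of all tested clusters were below 0 and 5.9% lower at this p. Of the 19 within long non-coding hosts, the number below 0 was 19 under quantile normalization, 18 or 19 without single arrays and 17 with leaf-treated array 2 alone. Lower at this p were 6 of them with one-way ANOVA (3.67% of all clusters) and 13 with centring (9.72%). Without single arrays it was 6 to 10 (2.91% to 11.7%). Members of one host share a transcript and are not independent, and the difference between host kinds was not tested. Among box H/ACA clusters the 9 within long non-coding hosts had 7 below 0 and 1 lower at this p, and the 40 within other protein-coding genes 21 below 0 and 0 lower. The 14 within ribosomal protein genes or, for SNORA7B, the pseudogene RPL32P3, had 7 below 0, 3 lower at this p and 1 higher. They held both box H/ACA members past the thresholds. Of the 4 Cajal body clusters within long non-coding hosts 1 was below 0, with a median of 0.11.

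GAS5, a growth-arrest-associated long non-coding RNA, held 7 box C/D clusters, and all 7 were below 0. They ran from -0.80 in SNORD44 to -0.15 in SNORD77, and SNORD75, SNORD78, SNORD79 and SNORD81 had an unadjusted p under 0.05. SNORD44, chosen after its values were seen, measured 5.65, 4.95 and 5.91 in untreated and 4.20, 5.29 and 4.61 in leaf-treated cells, where array 2 overlapped the untreated range, and its unadjusted p was just above 0.05. SNORD81 had a smaller difference, -0.36, and a tighter spread, 6.07, 5.92 and 6.07 against 5.53, 5.72 and 5.72, with adjusted p = 0.392 from limma. The number lower at this p ranged from 1 without untreated array 1, where 2.91% of all clusters were lower, to 6 with centring, where 9.72% were.

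The 4 box C/D clusters of RPL13A were between -0.41 and -0.04, and 0 had an unadjusted p under 0.05. The 3 of RPL3 were between 0.03 and 0.17, above 0, and their signs were not kept under other scalings. Of the 3, 1 was below 0 under quantile normalization and 2 with centring, which moved the median over all clusters to -0.05. NCL, the gene of nucleolin, held SNORD82 at -0.40 and SNORD20 at -0.21, beside -0.25 (SE 0.07) for NCL itself. HSPA8, a constitutive chaperone gene, held SNORD14C at -0.45 and SNORD14E at -0.24, beside -0.29 (SE 0.09) for the host.

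**Figure D4:**
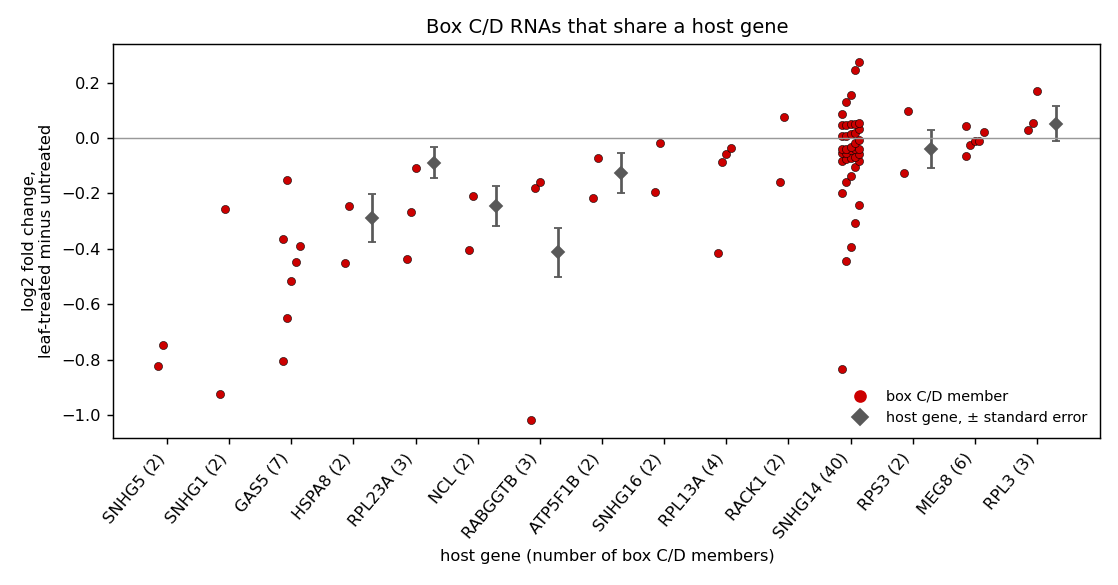
Log2 fold change, leaf-treated minus untreated (vertical axis), of box C/D members grouped by host gene (horizontal axis, with the number of members), for hosts with at least 2 such members that are reported here. Diamonds with standard error give the brightest cluster annotated to the host, where it had one, which was not checked to lie at the host's locus. All 7 GAS5 members lie below 0, whereas the 40 SNHG14 members gather around 0 with SNORD116-21 at -0.83.

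Of the 105 hosts, 71 had a cluster of their own, which paired 98 members with a measured host. Over these pairs the log2 fold changes of member and host had a Pearson correlation of 0.67 and a Spearman correlation of 0.71. Points share the 6 arrays, and members of a host share its value, so this is a description across genes without a test. By class it was 0.72 over 35 box C/D, 0.49 over 49 box H/ACA and 0.67 over 14 Cajal body pairs (Pearson). The member was lower than its host in 34 of the 98. The 1 cluster annotated to RPL7A was at -0.08 (SE 0.06) beside -0.64 for SNORD36B, and it turned to 0.03 under quantile normalization. Its row number is far from that of SNORD36B, so it may not measure the host's own locus. RPS20 was at -0.39 (SE 0.11) beside -0.62 for SNORD54. The 3 clusters of RPL5 were at -0.36, -0.30 and -0.17 beside -0.62 for SNORD21. Clusters of ribosomal protein genes can share signal with their processed copies. Where a host had several clusters, the brightest was used in these correlations, and its position was not checked beyond row numbers. For RPL5, RPL23A, EIF1AX, HAUS6, RPL12 and RPS2 its row number was far from the member's, while another cluster's was near a member's. The correlations therefore rest in part on clusters that may not measure the host's own locus. The cluster used and the other were at -0.09 and -0.27 for RPL23A, -0.27 and -0.35 for EIF1AX, -0.52 and -0.10 for HAUS6, and -0.50 and -0.09 for RAP1B. The cluster used and the one near a member were at -0.002 and -0.13 for RPL12, and -0.11 and 0.02 for RPS2. GAS5, SNHG1, SNHG5, RPSA and RPS12 had no cluster with a single symbol, so the RNAs they hold could not be set beside them.

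**Figure D5:**
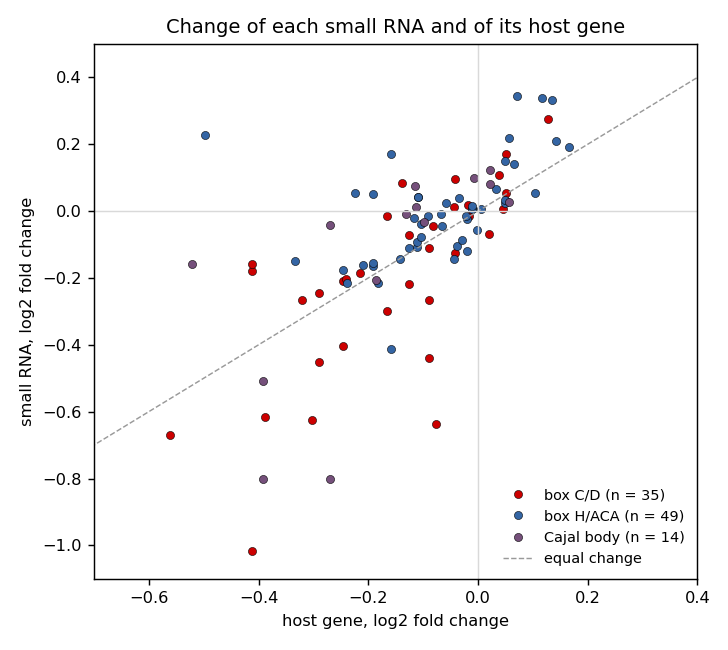
Log2 fold change of each small RNA (vertical axis) against that of the brightest cluster annotated to its host gene (horizontal axis). Both are leaf-treated minus untreated, for 98 members by class, and the dashed line marks equal change. Points spread along the line (Pearson r = 0.67), and SNORD45B at -1.02 with its host at -0.41 lies farthest below.

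Of the long non-coding hosts 4 had a cluster of their own, 2 of them among the 16 listed genes. ZFAS1, host of SNORD12C, measured 7.38, 6.89 and 7.20 in untreated and 6.57, 6.91 and 6.31 in leaf-treated cells, at -0.56 (SE 0.18, adjusted p = 0.496 from limma). SNHG17 was at -0.19 (adjusted p = 0.571 from limma). The hosts outside the list were SNHG29, host of SNORD49A, and EPB41L4A-AS1, host of SNORA13. SNHG29 was at -0.32 (SE 0.10, adjusted p = 0.483 from limma) and -0.52 (SE 0.20, adjusted p = 0.507 from limma) on its 2 clusters, and EPB41L4A-AS1 at -0.13 (SE 0.10, adjusted p = 0.634 from limma). Of 24 listed ribosomal protein hosts 16 were measured, and 15 were below 0. Lower at an unadjusted p under 0.05 were 2, RPS20 at -0.39 and RPL30 at -0.26. Of 27 other protein-coding hosts measured of 34, 25 were below 0 and 5 lower at this p, RABGGTB (-0.41) and TAF1D (-0.39), a subunit of an RNA polymerase I factor, having the smallest p. Beside these counts, 46.9% of all tested clusters were below 0 and 5.9% were lower at this p. For each list gene the brightest cluster was used. Less bright clusters of RPL5 (-0.36), RPL23A (-0.27) and EIF4A2 (-0.31) were also lower at this p and are not in these counts.

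The proteins that bind these RNAs were measured on the same arrays. For box C/D particles, FBL, the fibrillarin methyltransferase, was 9.20, 9.12 and 8.995 in untreated and 8.74, 8.995 and 8.70 in leaf-treated cells, at -0.29 (SE 0.10, adjusted p = 0.506 from limma). NOP58, a scaffold protein of the same particle, was 9.07, 8.96 and 8.99 in untreated and 8.59, 8.74 and 8.69 in leaf-treated cells, at -0.33 (SE 0.07, adjusted p = 0.383 from limma) and without overlap. NOP56 and SNU13 were not analysed here. Of the box H/ACA proteins, DKC1 (dyskerin, the pseudouridine synthase) was at -0.04, GAR1 at -0.06, NOP10 at -0.11 and NHP2 at -0.46 and -0.23 on 2 clusters, and 0 of the 4 had an unadjusted p under 0.05. The first NHP2 value was -0.14 without leaf-treated array 3, and the second was near 0 with leaf-treated array 2 alone. GAR1 turned to 0.04 under quantile normalization.

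Factors that assemble these particles or sit in Cajal bodies gave 18 of 18 below 0 and 8 lower at an unadjusted p under 0.05. Over all tested clusters the shares were 46.9% and 5.9%. TGS1, which forms the trimethylguanosine cap, was at -0.31 (SE 0.07, adjusted p = 0.383 from limma) and PHAX, an export and transport adaptor of capped small RNAs, at -0.30 (SE 0.08, adjusted p = 0.431 from limma). Under quantile normalization 15 of the 18 were below 0 and 3 were lower at this p, beside 5.4% of all clusters. One-way ANOVA gave 2 lower at this p, beside 3.67% of all clusters. Leaving out single arrays gave 3 to 8, beside 2.91% to 11.7%. With leaf-treated array 2 alone 13 of the 18 were below 0. Other short structured RNAs, such as spliceosomal, vault and RNase P family RNAs, were measured for 18 of 28 listed, and 8 were below 0. Of the 18, 7 lay above the reference level, so most were read near the array's floor. RMRP, the RNA of RNase MRP, was at -0.26 (adjusted p = 0.507 from limma), and RNU12, the U12 small nuclear RNA of the minor spliceosome, at 0.37 (adjusted p = 0.507 from limma), so these 2 of the 18 passed an unadjusted p under 0.05, in opposite directions. RMRP, RPPH1, the RNA of RNase P, and RNU4-1, a U4 small nuclear RNA, had the highest untreated means of the 18 (8.11, 5.70 and 4.06). RPPH1 was at -0.24 and RNU4-1 at -0.60. In 0 genes of these lists was the adjusted p from limma under 0.05.

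Lengths in RefSeq set the classes apart. Box C/D members were 60 to 205 bases long (median 81), box H/ACA members 123 to 236 (median 134) and Cajal body members 125 to 421 (median 270). Within box C/D the Pearson correlation of length with log2 fold change was 0.29 (Spearman 0.31) over 115 clusters, so the shorter RNAs of the class tended to have the lower values. These 115 include the 46 repeat family clusters, of which 6 lay above the reference level, and their part in the correlation was not tested. Within box H/ACA the Pearson correlation was -0.11 over 64. Over the 19 Cajal body clusters this correlation was -0.42 (Spearman -0.45), in the opposite direction to box C/D. These are descriptions across clusters that share arrays. The part of RNA length, and of its recovery on the columns, in the difference between classes was not tested.

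The spread between replicates of the members was wide. The median pooled SD was 0.15 for members and 0.13 over all tested clusters, and above the reference level 0.21 and 0.15. Around each threshold members passed or missed by little. SNORD54 was the last inside at 1.53-fold lower, SNORD38B was also 1.53-fold lower with adjusted p = 0.566 from limma, and SNORD44 and SNORD50B missed on p alone.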

How the data were processed

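Total RNA of 3 untreated and 3 leaf-treated HepG2 samples was read on Human Gene 1.0 ST arrays. Log2 expression was deposited as 1 table for all samples. GCOS, Partek and RMA are listed in the submitters' processing notes, with no version given. RMA corrects background, scales arrays to each other and sums up probes, which can compress differences near the floor. A genome build is not given in the sources used here. Of 33297 deposited rows, 4468 at 0 on all arrays were left out. Rows with several symbols (1735) or none (7803) were not tested, and 630 tested rows have the values of another. Symbols came from the platform annotation, updated by Entrez identifier, and hosts, lengths and start sequences from RefSeq (GRCh38.p14).

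The groups were compared with limma 3.58.1 (lmFit, eBayes) in R 4.3.3 without covariates, with Benjamini-Hochberg adjustment over 19291 clusters. The fit was tested on simulated data. Precision is limited by 3 arrays per group. The members, gene lists and naming rule were chosen with earlier results of these data known. Members named were the 6 largest changes per direction past the series' thresholds in box C/D and in box H/ACA, 3 Cajal body clusters per direction of smallest p, a set of well-known RNAs, the core particle proteins, up to 2 genes of smallest p per list, and hosts. The lists were particle proteins, assembly factors, 3 kinds of host, other short RNAs and cell markers. Alternatives were quantile normalization, median centring, leaving out dim clusters, a trend with robust fit, array weights, one-way ANOVA as in the series' design, all rows, averaged clusters, identical rows once, a replicate block and leaving out each array. Leaf-treated array 2 alone and the box C/D counts were added after seeing the data. Some host genes are not reported here.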

Additional observations from a re-analysis of the deposited data

How the results depend on the processing

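In all alternatives 0 members had an adjusted p under 0.05 and 0 were past the series' thresholds as higher. The 12 members past them as lower (8 box C/D) became 7 (6) with one-way ANOVA and 4 (4) with leaf-treated array 2 alone, and leaving out single arrays gave 5 to 16 (3 to 11). Other settings gave 10 to 14. Box C/D clusters lower at an unadjusted p under 0.05, 23 in number, were 11 with leaf-treated array 2 alone (4.46% of all clusters lower), 17 to 29 without single arrays (2.91% to 11.7%) and 18 to 33 in the other settings (3.67% to 9.72%, the highest with centring). Those higher, 0 in number, were 2 under quantile normalization and with leaf-treated array 2 alone, 1 with the trend and robust fit, with array weights and with the replicate block, and 0 to 2 without single arrays. Centring moved the median over all clusters from 0.0108 to -0.0535, and clusters above the reference level were taken by the higher group mean, so that some passed through the untreated group alone. The box C/D median of -0.0721 moved to -0.136 with centring, to -0.298 without dim clusters, and ranged from -0.115 to -0.0518 without single arrays. The box H/ACA median of -0.0199 moved to -0.0843 with centring, -0.0564 with quantile normalization and -0.0549 with leaf-treated array 2 alone, and ranged from -0.0573 to -0.0105 without single arrays. The Cajal body median of 0.0129 moved to -0.0514 with centring, -0.0789 without dim clusters and -0.0445 with leaf-treated array 2 alone, and ranged from -0.0308 to 0.0430 without single arrays. Centring moves the log2 fold change of every cluster by the same amount, so these medians shifted together. The cause of the other shifts was not tested, and some of those settings also had fewer clusters or arrays. Same-numbered arrays of the groups had correlations of -0.11, -0.18 and 0.12 of their deviations, so the numbers were not taken to pair them. With the replicate block 10 members were past the thresholds as lower. Where a leaf-treated value lies under the reference level, the size of a decrease is limited by the array's floor.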

Other observations

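Besides the clusters with a single symbol, 76 rows of the table carried several symbols of which at least 1 was a small nucleolar or Cajal body RNA, most of them host and small RNA together. They held 63 distinct sets of values. Fitted with limma among all 28829 rows above 0, 18 of the 76 were lower in leaf-treated cells at an unadjusted p under 0.05 and 0 were higher, beside 4.89% lower and 3.68% higher over all these rows. Of these 18, 11 were also at least 1.5 fold lower, beside 0.562% of all rows. The median log2 fold change was -0.18, the range -1.11 to 0.17, and the smallest adjusted p 0.40. No gene is named for them, since a row cannot be given to 1 of its symbols.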
